A study of Mus musculus with 18 samples.

Results

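The Wnt ligands, receptors and regulators of mouse mammary epithelial organoids are described here as a set of 57 genes. The set was chosen by gene symbol alone: 19 Wnt ligands, 2 genes of ligand secretion (Porcn, Wls), 12 receptors (the frizzled genes with Lrp5 and Lrp6), 7 R-spondin and Lgr genes, 9 secreted inhibitors (Sfrp, Dkk and Wif1), 2 ubiquitin ligases (Rnf43, Znrf3), 2 intracellular feedback genes (Axin2, Nkd1) and 4 TCF/LEF transcription factors. All 57 were found in both count tables, among 56691 features in the estradiol experiment and 56893 in the Torin experiment. Expression was high enough to be tested for 39 of them in the estradiol experiment and 45 in the Torin experiment, 38 of these in both, while 11 were too low in either.

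Polyadenylated RNA was sequenced from organoids, which are epithelial clusters grown in culture from the mammary glands of wild-type, nulliparous C57BL/6 mice, in 6 groups of 3 libraries. In the estradiol experiment, organoids of mice aged about 24 weeks received 10 nM estradiol, the main estrogen, or its solvent ethanol diluted 1000-fold, for 11 days of a culture of 12 days. This length is that of the sample titles, and the column headers of the table carry instead the tag J1, which the labels do not explain. In the Torin experiment, organoids of mice aged about 15 weeks received 100 nM Torin 1, which blocks the growth kinase mTOR, or its solvent DMSO diluted 1000-fold, in 2 arms named D12 and D6, and all were collected after 18 days of culture. All cultures had serum in the medium during the first day. The sample titles read D12 and D6 as days of treatment, whereas the design text exchanges these lengths, and the arms also carry separate batch tags, so that arm, batch and length of treatment cannot be told apart. The organoids came from 3 glands of 3 mice, and what separates the replicates is not stated, so each p-value measures only the spread between these libraries, which may be technical.

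Wnt proteins are lipid-modified by Porcn, carried to the cell surface by Wls, and bind frizzled receptors with the coreceptors Lrp5 and Lrp6. The signal stabilises beta-catenin, which joins TCF/LEF factors at target genes, among them the feedback inhibitors Axin2, Nkd1, Znrf3 and Rnf43 and the receptor gene Lgr5. Znrf3 and Rnf43 remove frizzled receptors from the surface, and R-spondins bound to Lgr4, Lgr5 or Lgr6 hold these ligases back, while Sfrp proteins and Wif1 bind the ligands and most Dkk proteins block Lrp5 and Lrp6. In the mouse mammary gland the pathway is known for sustaining basal stem cells and for ductal side branching downstream of progesterone, through Wnt4 and the R-spondin Rspo1.

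Promoter windows of 300 bases, from 250 bases before to 50 bases after the annotated start, are available in the RefSeq table (build GRCm38.p6) for 38 of the 57 genes. The windows printed are those of Fzd1 and Fzd4, which moved the same way in all 3 treatment comparisons below, and of Axin2 and Wif1, whose response to Torin differed between the arms. Fzd1 lies on the minus strand at chr5:4758167-4758466, Fzd4 on the plus strand at chr7:89404116-89404415, Axin2 on the plus strand at chr11:108920099-108920398, and Wif1 on the plus strand at chr10:121033754-121034053. Each is written 5′ to 3′ along the strand of the gene, with motif matches in capitals.
Fzd1: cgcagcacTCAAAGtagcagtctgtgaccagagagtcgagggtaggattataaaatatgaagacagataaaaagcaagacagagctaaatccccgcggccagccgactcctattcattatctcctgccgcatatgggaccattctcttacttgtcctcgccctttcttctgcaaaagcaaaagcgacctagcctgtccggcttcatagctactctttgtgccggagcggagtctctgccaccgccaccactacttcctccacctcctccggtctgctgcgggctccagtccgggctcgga
Fzd4: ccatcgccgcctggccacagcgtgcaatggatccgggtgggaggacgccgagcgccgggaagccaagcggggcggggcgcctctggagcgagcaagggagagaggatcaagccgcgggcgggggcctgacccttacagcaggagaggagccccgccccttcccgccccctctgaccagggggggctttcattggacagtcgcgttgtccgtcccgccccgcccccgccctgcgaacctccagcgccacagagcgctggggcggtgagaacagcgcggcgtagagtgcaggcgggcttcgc
Axin2: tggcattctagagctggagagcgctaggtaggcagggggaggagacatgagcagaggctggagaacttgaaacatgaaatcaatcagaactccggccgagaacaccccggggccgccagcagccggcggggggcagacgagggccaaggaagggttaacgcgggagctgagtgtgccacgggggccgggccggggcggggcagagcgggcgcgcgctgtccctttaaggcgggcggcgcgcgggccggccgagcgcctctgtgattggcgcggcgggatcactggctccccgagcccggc
Wif1: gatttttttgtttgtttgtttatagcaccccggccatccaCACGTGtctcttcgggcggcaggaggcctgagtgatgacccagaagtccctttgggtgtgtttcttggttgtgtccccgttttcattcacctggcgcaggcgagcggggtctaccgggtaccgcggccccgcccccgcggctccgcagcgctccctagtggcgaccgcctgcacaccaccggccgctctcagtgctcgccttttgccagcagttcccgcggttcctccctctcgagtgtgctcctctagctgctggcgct
The motifs searched on both strands were CTTTGA, a core that TCF/LEF factors bind, CACGTG, an E-box, and the palindromic estrogen response element. The matches in the windows shown did not overlap each other. CTTTGA was found in 5 of 47 windows of the Wnt genes (10.6%), those of Dkk1, Fzd1, Lef1, Wnt11 and Wnt5b, against 16% of all 32851 windows. In Fzd1 it lies at position −242 from the start site and reads on the other strand, so that TCAAAG is capitalised. CACGTG was also found in 5 of the 47 windows (10.6%), those of Fzd9, Lef1, Rspo4, Wif1 and Wnt9a, against 7.15% of all windows, and in Wif1 it lies at position −210. The estrogen response element was in no window of the Wnt genes and in 0.07% of all windows. These matches describe the letters of short windows only.

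The sequencing depth was 20637473 to 24312079 counts with estradiol or ethanol and 23239364 to 28910688 counts with Torin or DMSO, and the biological coefficient of variation was 5.27% and 20.2%, so an equal fold change passed the test more readily with estradiol. The third D6 Torin library stood apart, with a median distance of 0.47 on the log2 scale from its 2 mates over the Wnt genes, against 0.14 to 0.39 for the other libraries of that experiment. The third D12 Torin library also departed from its mates at several Wnt genes. For many of the values that move with either library, though not for all, the value without it is given beside them. Epithelial markers were abundant in every group, with summed levels of at least 1822 CPM (counts scaled to a library total of 1000000) for 10 basal and 4453 CPM for 6 pan-luminal genes. Fibroblast markers were present as well, whereas the endothelial, immune and adipocyte lists of 6 genes each (5 immune genes were in the estradiol table) summed to at most 14.2 CPM, and their defining genes Cldn5, Adgre1, Cd3e, Adipoq and Lep were at 0 in at least 1 group.

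Among the ligands, levels are compared per kilobase of exon (CPM per kb, exon lengths from GENCODE M21 on GRCm38). Wnt7b, a ligand of ductal epithelium, led in the estradiol experiment, with a mean of 21.6 CPM per kb in estradiol and 15.1 in ethanol libraries. It was followed by Wnt5b (16.4 and 13.5), Wnt10a (9.28 and 8.22) and Wnt5a (6.98 and 3.71). In ethanol libraries the ranges of Wnt7b (13.8 to 17.3 CPM per kb) and Wnt5b (13.2 to 14.0) overlapped, and the other steps of this order did not. In the Torin experiment Wnt10a led with both DMSO groups, at 7.93 CPM per kb in D12 and 6.16 in D6, ahead of Wnt7b at 5.85 and 5.36, although in D6 their ranges overlapped. With Torin Wnt10a led in D12 (7.42 CPM per kb, Wnt7b 6.53) and Wnt7b in D6 (24.4, Wnt10a 18.2), where Wnt7b ranged from 13.2 to 45.3 and the pair overlapped. The receptors were led by Fzd7 in ethanol (65.0 CPM per kb) and in both DMSO groups (11.0 in D12, 12.5 in D6). In D12 DMSO libraries the Fzd7 range (10.3 to 11.5 CPM per kb) overlapped those of Fzd6 (8.98 to 11.2) and Fzd1 (7.88 to 10.3), and in D6 it was above both. With estradiol Lrp5 (56.2 CPM per kb) exceeded Fzd7 (42.5) without overlap. With Torin Fzd1 had the highest mean in D12 (22.6, with Fzd7 next at 13.3) and D6 (25.6, with Fzd6 next at 16.2), clear of the next gene in both. In D6, however, its range (18.9 to 38.3 CPM per kb) overlapped those of Lrp5 (10.2 to 25.9) and Fzd7 (8.90 to 21.5). The 2 experiments were scaled apart, so levels are not compared across them. Wnt1 and Wnt3a, both known as canonical ligands, had no count outside 1 DMSO library, which held 2 counts of Wnt1 and 3 of Wnt3a, and Wnt3 had 7 counts in all 18 libraries.

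**Figure D1:**
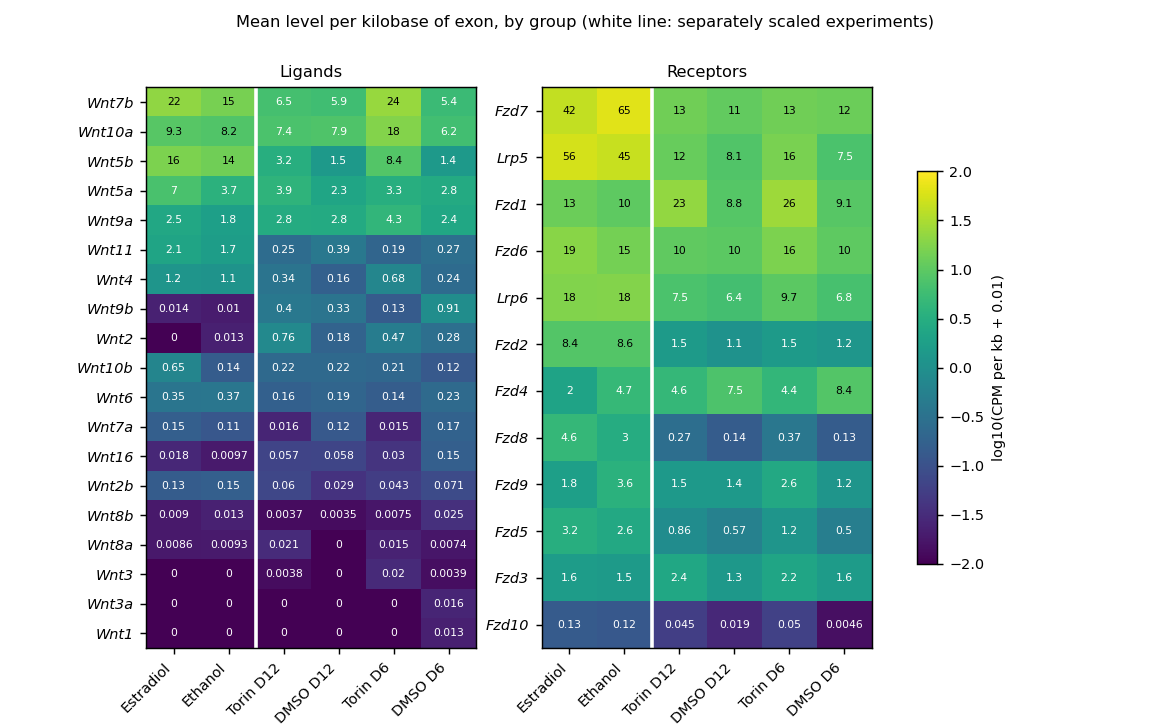
Mean level of each Wnt ligand and receptor in CPM per kilobase of exon (numbers and colour, log10 scale) in the 6 groups of 3 libraries; the white line separates the experiments, which were scaled apart. Wnt7b or Wnt10a has the highest ligand mean in each group, Lrp5 the highest receptor mean with estradiol, Fzd1 with Torin and Fzd7 in ethanol and DMSO, and Wnt1, Wnt3 and Wnt3a are at or near 0.

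With estradiol, several ligands and frizzled receptors of the set rose, while Fzd4, Fzd7 and Fzd9 and the secreted inhibitors Sfrp1 and Wif1 fell. Of the 39 genes tested, 13 rose and 7 fell (adjusted p under 0.05, quasi-likelihood test of edgeR, Benjamini-Hochberg adjusted over all genes, as throughout), while 17.4% of all 15358 genes rose and 16.6% fell. Thus 51.3% of the Wnt genes and 34.0% of all genes were called. The estradiol and ethanol libraries did not overlap for 23 of the 39, against 46.4% of all genes. The median log2 fold change was 0.12 over the Wnt genes and −0.006 over all genes. Of the 39 Wnt genes, 1 rise (Wnt10b) and 1 fall (Fzd4) were at least 2-fold, and of all 15358 genes 624 calls were. Fibroblast markers moved with estradiol as well: 7 of 12 rose and 1 fell, with a summed level of 538 to 633 CPM in estradiol against 394 to 422 CPM in ethanol libraries. Of 8 hormone-sensing luminal markers 2 rose and 5 fell (500.1 to 545 CPM with estradiol, 619 to 636 CPM with ethanol), and of 10 basal markers 2 rose and 5 fell (8722 to 9212 CPM with estradiol, 8409 to 8947 CPM with ethanol). Of 8 luminal progenitor markers 2 rose and 5 fell (2576 to 2633 CPM with estradiol, 2684 to 2810 CPM with ethanol). The part of cell composition in the Wnt values was not tested, and fewer cells of a type cannot be told apart from less RNA per cell.

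Of 11 ligands tested, 6 rose with estradiol and the other 5 did not pass the test. Wnt10b, a canonical ligand that drives mammary tumours when overexpressed in mice, had 1.98, 2.08 and 2.59 CPM in estradiol libraries, against 0.606, 0.504 and 0.292 CPM in ethanol libraries. Every estradiol library was above every ethanol library, and Wnt10b rose (log2 fold change 2.22, SE 0.32, adjusted p = 8.70e-05). Wnt5a, which acts mostly without beta-catenin, rose to 42.3 to 52.8 CPM with estradiol, against 23.9 to 27.5 CPM with ethanol (log2 fold change 0.91, SE 0.082, adjusted p = 8.76e-07). Wnt7b (97.4 to 105 CPM with estradiol, 63.5 to 79.8 with ethanol) rose by a log2 of 0.52 (SE 0.070), and Wnt9a and Wnt5b, each without overlap, by 0.50 (SE 0.12) and 0.28 (SE 0.052). Wnt10a, a ligand of ectodermal appendages, had 22.6, 23.4 and 22.6 CPM with estradiol, against 20.0, 20.8 and 20.1 CPM with ethanol. Its groups did not overlap, but its call was at the threshold (log2 fold change 0.17, SE 0.064, adjusted p = 0.0492) and was lost without any 1 of the 6 libraries and with DESeq2 (adjusted p = 0.183). Wnt4, the ligand of hormone-sensing cells, had 4.68, 5.26 and 5.27 CPM with estradiol, against 3.77, 4.58 and 5.78 CPM with ethanol, overlapping groups with no call (log2 fold change 0.11, SE 0.16, adjusted p = 0.639).

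The secretion genes lay close together in the 2 groups. Wls had 158.1, 158.8 and 157.7 CPM in estradiol libraries, against 157.5, 157 and 153.8 CPM in ethanol libraries, a separation of under 1 CPM at its narrowest that did not pass the test (log2 fold change 0.019, SE 0.039, adjusted p = 0.744). Porcn had 33.3, 31.2 and 29.0 CPM with estradiol, against 29.5, 30.1 and 30.3 CPM with ethanol, which overlapped (log2 fold change 0.057, SE 0.062, adjusted p = 0.516).

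Of 11 receptors tested with estradiol, 5 rose and 3 fell. Fzd4, which also serves as the receptor of norrin in retinal vessels, had 13.7, 13.6 and 13.9 CPM in estradiol libraries, against 32.5, 31.1 and 31.5 CPM in ethanol libraries. The groups were far apart with little spread within either, and Fzd4 fell (log2 fold change −1.21, SE 0.064, adjusted p = 3.18e-09). Fzd7, the most abundant frizzled gene of this experiment and one linked to mammary stem cells in the mouse, fell to 184 to 198 CPM with estradiol, against 291 to 298 CPM with ethanol (log2 fold change −0.61, SE 0.041, adjusted p = 4.33e-08). Fzd9, at a lower level, fell to 3.51 to 5.17 CPM with estradiol, against 8.01 to 8.75 CPM with ethanol (log2 −0.99, SE 0.15). The 5 rises did not overlap between groups either: Fzd8 (log2 0.63), Fzd6, a receptor of tissue polarity (0.38), Fzd5 (0.32), Fzd1 (0.32) and the coreceptor Lrp5 (0.31), with SEs of 0.046 to 0.072. Fzd2, Fzd3 and Lrp6 did not pass the test (log2 −0.025, 0.12 and −0.024).

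Of the R-spondin receptors, Lgr6 rose with estradiol (139.7 to 149.6 CPM, against 121 to 128 CPM with ethanol; log2 0.22, SE 0.045) and Lgr4 fell (82.6 to 84.1 CPM, against 92.0 to 98.1 CPM with ethanol; log2 −0.18, SE 0.044). Lgr5, a Wnt target and stem cell marker in several tissues, had 8.01, 9.05 and 7.15 CPM with estradiol, against 5.15, 8.07 and 8.50 CPM with ethanol, and these groups overlapped (log2 fold change 0.16, SE 0.16, adjusted p = 0.483). The R-spondins were too low to be tested. Rspo1, which is known as a hormone-dependent factor of the mouse mammary gland, had 2, 3 and 6 counts with estradiol, against 1, 2 and 5 counts with ethanol, which overlap (11 counts in all against 8, a ratio of 1.42 with a 95% exact counting interval of 0.522 to 4.08). Rspo3 had 12, 8 and 18 counts with estradiol, against 3, 5 and 4 counts with ethanol, without overlap, and was called higher when no filter was applied (log2 1.71, SE 0.59, adjusted p = 0.0299).

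The secreted inhibitors split with estradiol, 1 rising and 2 falling of 5 tested. Sfrp1, which binds Wnt proteins, fell to 101 to 117 CPM with estradiol, against 188 to 236 CPM with ethanol (log2 fold change −0.94, SE 0.074, adjusted p = 2.13e-07). Wif1, another Wnt-binding protein, fell to 23.3 to 27.8 CPM with estradiol, against 45.2 to 50.9 CPM with ethanol (log2 fold change −0.91, SE 0.070, adjusted p = 1.80e-07). Neither pair of groups overlapped. Dkk3, a divergent Dkk protein that does not bind Lrp6, rose to 167 to 171 CPM with estradiol, against 122 to 133 CPM with ethanol (log2 0.39, SE 0.044). Of the ubiquitin ligases Rnf43 fell (log2 −0.37, SE 0.078) and Znrf3 did not pass the test (log2 fold change 0.21, SE 0.090, adjusted p = 0.0931). The Znrf3 groups did not overlap (11.52 to 12.65 CPM with estradiol, 9.915 to 10.79 CPM with ethanol). With limma Znrf3 was called higher (log2 0.35, SE 0.10, adjusted p = 0.0335). Axin2, the most widely used target of beta-catenin, had 1.04, 0.831 and 0.564 CPM with estradiol, against 0.216, 0.798 and 0.437 CPM with ethanol. Both groups were near the lower limit of testing and overlapped (log2 fold change 0.73, SE 0.45, adjusted p = 0.229). Nkd1 and the 3 TCF/LEF genes tested did not pass either, with log2 fold changes of −0.51 and of −0.20 to −0.031. Lef1 had 14, 4 and 3 counts with estradiol, against 4, 9 and 4 counts with ethanol, overlapping and too few to be tested.

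**Figure D2:**
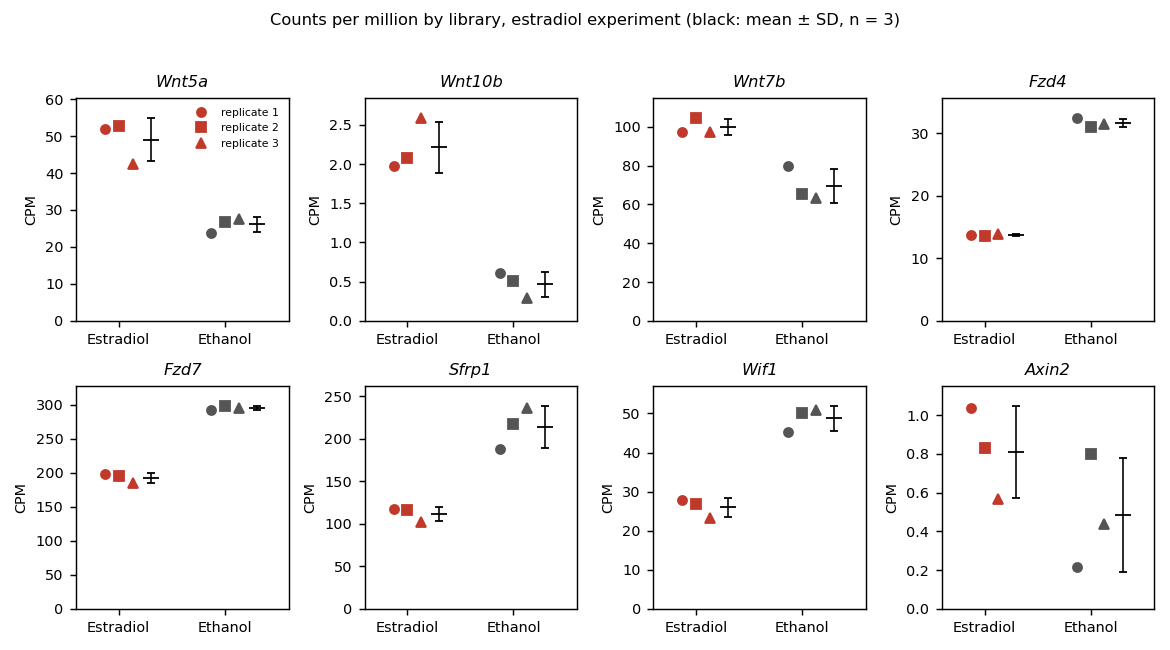
CPM in each of the 3 estradiol (left) and 3 ethanol (right) libraries for 8 Wnt genes, with the mean ± SD in black; symbols mark replicate numbers and each vertical axis starts at 0. Wnt5a, Wnt10b and Wnt7b lie higher and Fzd4, Fzd7, Sfrp1 and Wif1 lower with estradiol without overlap, whereas the Axin2 groups overlap.

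With Torin more Wnt genes rose than fell in both arms. Fzd1, Fzd3, Lgr6, Sfrp2 and Tcf7 rose in both, Fzd4, Rspo4 and Wnt7a fell in both, Axin2, Wnt10a and Wif1 rose in D6, and Lgr5 rose in D12 and fell in D6. In D12, 13 of 45 tested genes rose and 3 fell, while 10.8% of all 18112 genes rose and 14.6% fell; in all 35.6% of the Wnt genes and 25.4% of all genes were called. In D6, 15 rose and 7 fell, while 19.8% of all genes rose and 19.3% fell; in all 48.9% of the Wnt genes and 39.1% of all genes were called. The Torin and DMSO libraries did not overlap for 27 of 45 genes in D12 (43.7% of all genes) and for 26 of 45 in D6 (48.5% of all genes). The median log2 fold change of the Wnt genes was 0.37 in D12 and 0.45 in D6, against 0.012 and 0.048 over all genes. All 12 libraries share 1 estimate of spread, so a library of one arm bears on both. Without the third D6 Torin library, 22 rose and 3 fell in D12 and 15 rose and 10 fell in D6. Without the third D12 Torin library, 11 rose and 4 fell in D12 and 16 rose and 8 fell in D6. The D12 rises numbered 7 without the first D12 Torin or the first D12 DMSO library and 8 without the second of either. Calls over all genes moved too. In D12 they numbered 4592 of 18112 with all libraries and 5992 of 18681 without the third D6 Torin library. They numbered 3261 to 3537 without 1 of the first 2 D12 Torin or DMSO libraries. In D6 they numbered 7088 with all libraries and 6933 without the third D6 Torin library. Without the third D12 Torin library they numbered 4634 in D12 and 7282 in D6.

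Cell type markers moved in the same libraries. In D12, fibroblast markers summed to 1022 to 1398 CPM with Torin, against 1169 to 1328 CPM with DMSO, and 2 of 12 rose and 2 fell. In D6, they summed to 426 to 475 CPM with Torin, against 1162 to 1585 CPM with DMSO, and 10 of 12 fell. Basal markers summed to 1915 to 2470 CPM with Torin against 3391 to 3622 CPM with DMSO in D12 (2 of 10 rose, 4 fell), and to 1822 to 2236 CPM with Torin against 2557 to 2978 CPM with DMSO in D6 (3 rose, 2 fell). Pan-luminal markers summed to 4802 to 5753 CPM with Torin against 6611 to 6917 CPM with DMSO in D12 (3 of 6 fell), and to 8120 to 9475 CPM with Torin against 5300 to 6528 CPM with DMSO in D6 (3 rose, 1 fell). Of 8 luminal progenitor markers 3 fell in D12, and 1 rose and 6 fell in D6. Of 8 hormone-sensing markers 1 rose and 5 fell in D12, and 2 rose and 5 fell in D6. The low immune sum was 2.09 to 2.34 CPM with Torin against 8.04 to 11.9 CPM with DMSO in D12 (of 3 markers tested 1 fell), and 1.70 to 2.18 CPM with Torin against 6.38 to 11.5 CPM with DMSO in D6 (1 rose, 2 fell). The adipocyte sum was 6.199 to 7.885 CPM with Torin against 2.83 to 4.04 CPM with DMSO in D12, and 3.79 to 7.25 CPM with Torin against 2.64 to 3.18 CPM with DMSO in D6, with 1 of 2 tested markers, Pparg, higher in each arm. The part of these shifts in the Wnt values was not tested.

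Of 13 ligands tested, 2 rose and 1 fell with Torin in D12, and 4 rose and 3 fell in D6. Wnt10a had 18.1, 18.1 and 18.7 CPM with Torin in D12, against 18.1, 18.6 and 22.0 CPM with DMSO. In D6, Wnt10a had 42.3, 42.4 and 49.98 CPM with Torin, against 16.5, 16.2 and 12.9 CPM with DMSO. The groups overlapped in D12 (log2 fold change −0.096, SE 0.12, adjusted p = 0.629) and were far apart in D6, where Wnt10a rose (log2 fold change 1.56, SE 0.12, adjusted p = 1.83e-06). Wnt7b had 24.8, 32.8 and 32.7 CPM with Torin in D12, against 25.5, 24.9 and 30.7 CPM with DMSO, which overlapped (log2 fold change 0.16, SE 0.37, adjusted p = 0.810). In D6, Wnt7b had 68.3, 60.7 and 209 CPM with Torin, against 25.4, 23.8 and 25.0 CPM with DMSO, and rose (log2 fold change 2.19, SE 0.38, adjusted p = 0.000806). The third Torin library was the highest by far, and without it the log2 fold change was 1.37 (SE 0.13).

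Wnt5b depended on the same library. In D12, Wnt5b had 7.11, 11.7 and 6.89 CPM with Torin, against 4.12, 3.68 and 3.79 CPM with DMSO, without overlap and without a call (log2 fold change 1.15, SE 0.66, adjusted p = 0.243). In D6, Wnt5b had 6.82, 6.57 and 53.5 CPM with Torin, against 3.66, 4.21 and 3.47 CPM with DMSO, and rose (log2 fold change 2.56, SE 0.68, adjusted p = 0.0111). Without the third D6 Torin library the D6 log2 fold change was 0.82 (SE 0.22), still called, and Wnt5b was then called higher in D12 as well (log2 1.16, SE 0.20). Fitted on the D6 libraries alone, the D6 rise was not called (adjusted p = 0.0615). Wnt4 had 1.41, 1.71 and 1.16 CPM with Torin in D12, against 0.921, 0.708 and 0.368 CPM with DMSO, without overlap. In D6, Wnt4 had 1.22, 1.39 and 6.00 CPM with Torin, against 1.32, 0.671 and 1.01 CPM with DMSO, with the third library again the highest and the others overlapping DMSO. Neither arm gave a call for Wnt4 (log2 fold change 1.09, SE 0.60, adjusted p = 0.220 in D12; log2 fold change 1.505, SE 0.58, adjusted p = 0.0569 in D6), although without the third D6 Torin library Wnt4 was called higher in D12 (log2 1.11, SE 0.38), and DESeq2 and the fit with no filter called it higher in D6.

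Ligands of low level moved both ways. Wnt2, known from lung development, had 1.98, 1.44 and 1.71 CPM with Torin in D12, against 0.368, 0.354 and 0.478 CPM with DMSO, and rose without overlap (log2 fold change 2.08, SE 0.46, adjusted p = 0.00607). In D6, Wnt2 had 1.39, 1.01 and 0.798 CPM with Torin, against 0.544, 0.224 and 1.12 CPM with DMSO, which overlapped (log2 fold change 0.74, SE 0.45, adjusted p = 0.218). Without the third D6 DMSO library Wnt2 was called higher in D6 (log2 1.45). Wnt9b, known as an inducer of kidney tubules, had 1.29, 1.86 and 2.20 CPM with Torin in D12, against 0.626, 1.70 and 2.21 CPM with DMSO, overlapping (log2 fold change 0.24, SE 0.51, adjusted p = 0.787). In D6, Wnt9b fell to 0.645, 0.488 and 0.608 CPM with Torin, against 7.12, 1.70 and 3.57 CPM with DMSO, all 3 of them higher but spread widely (log2 fold change −2.82, SE 0.55, adjusted p = 0.00167). Wnt7a, which patterns the female reproductive tract, fell in both arms and was below 1 CPM in every library. With Torin against DMSO it had 4 counts in all against 32, a ratio of 0.127 with a 95% exact counting interval of 0.0326 to 0.358, in D12, and 4 counts in all against 40, a ratio of 0.0919 with a 95% exact counting interval of 0.0239 to 0.254, in D6. Of the remaining ligands, Wnt5a rose in D12 (26.4 to 28.4 CPM with Torin, 15.1 to 17.2 with DMSO; log2 0.80, SE 0.095). Wnt9a rose in D6 (12.1 to 16.2 CPM with Torin, 6.54 to 8.94 with DMSO; log2 0.83, SE 0.16), and Wnt16 fell in D6 (0.0376 to 0.204 CPM with Torin, 0.542 to 0.850 with DMSO; log2 −2.30, SE 0.56).

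Porcn had 42.2, 35.9 and 37.4 CPM with Torin in D12, against 31.3, 30.7 and 35.4 CPM with DMSO, without overlap but without a call (log2 fold change 0.25, SE 0.10, adjusted p = 0.0990), and it was called higher without the third D6 Torin library (log2 0.26, SE 0.090, adjusted p = 0.0378). In D6, Porcn rose to 45.3, 44.3 and 38.6 CPM with Torin, against 31.9, 29.3 and 27.6 CPM with DMSO (log2 fold change 0.53, SE 0.10, adjusted p = 0.00145). The enzyme's transcript was thus above DMSO in every Torin library of its arm. Wls had 96.9, 102 and 143 CPM with Torin in D12, against 147, 153 and 135 CPM with DMSO, overlapping through the third Torin library (log2 fold change −0.35, SE 0.15, adjusted p = 0.104), and without that library it was called lower (log2 −0.55, SE 0.12, adjusted p = 0.00641). In D6, Wls had 141, 133 and 178 CPM with Torin, against 153, 137 and 142 CPM with DMSO, which overlapped (log2 fold change 0.064, SE 0.15, adjusted p = 0.764).

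Of 11 receptors tested, 2 rose and 1 fell with Torin in D12, and 5 rose and 1 fell in D6. Fzd1 had 91.3, 95.2 and 97.8 CPM with Torin in D12, against 34.0, 43.3 and 33.1 CPM with DMSO, and rose (log2 fold change 1.37, SE 0.24, adjusted p = 0.00154). In D6, Fzd1 had 79.3, 82.0 and 161 CPM with Torin, against 37.8, 31.6 and 44.9 CPM with DMSO, and rose as well (log2 fold change 1.49, SE 0.24, adjusted p = 0.000479). The arms gave like sizes without overlap of groups, and without the third D6 Torin library the D6 value was 1.07 (SE 0.14). Fzd4 fell in both arms: to 25.9 to 34.5 CPM with Torin, against 47.7 to 54.9 CPM with DMSO, in D12 (log2 −0.71, SE 0.13), and to 25.4 to 34.0 CPM with Torin, against 54.3 to 58.2 CPM with DMSO, in D6 (log2 −0.93, SE 0.13). Fzd3, a receptor known from axon guidance, rose in D12 (log2 0.84, SE 0.12) and D6 (log2 0.51, SE 0.12).

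Fzd5 and Lrp5 were called in D6. Fzd5 had 5.02, 6.14 and 6.65 CPM with Torin in D12, against 4.05, 3.54 and 4.20 CPM with DMSO, without overlap or a call (log2 fold change 0.60, SE 0.25, adjusted p = 0.109). In D6, Fzd5 rose to 6.21, 6.57 and 12.1 CPM with Torin, against 3.66, 3.94 and 2.85 CPM with DMSO (log2 fold change 1.25, SE 0.26, adjusted p = 0.00223). Lrp5 had 70.5, 76.1 and 67.6 CPM with Torin in D12, against 48.7, 49.8 and 47.8 CPM with DMSO, again without overlap or a call (log2 fold change 0.55, SE 0.28, adjusted p = 0.183). In D6, Lrp5 rose to 62.8, 61.2 and 156 CPM with Torin, against 41.7, 46.8 and 46.3 CPM with DMSO (log2 fold change 1.05, SE 0.28, adjusted p = 0.0115), and in a fit of the D6 libraries alone it was not called (adjusted p = 0.0696). The third D6 Torin library was the highest for both genes: without it the D6 log2 fold changes were 0.87 for Fzd5 and 0.45 for Lrp5, both called, and both genes were called higher in D12. Fzd6 rose in D6 (67.0 to 77.7 CPM with Torin, 42.3 to 48.0 with DMSO; log2 0.68, SE 0.099) and was not called in D12 (log2 0.066, SE 0.099). Fzd7 and Fzd9 show how far 1 library can carry a mean. In D6, Fzd7 had 44.4, 40.3 and 97.5 CPM with Torin, against 58.1, 59.6 and 51.5 CPM with DMSO. Fzd9 had 1.56, 1.502 and 14.8 CPM with Torin, against 2.02, 2.77 and 3.54 CPM with DMSO. Neither was called with all libraries, and without the third D6 Torin library both were called lower, with log2 fold changes of −0.42 (SE 0.11) and −0.87 (SE 0.27). Fzd7 was then also called higher in D12 (log2 0.30, SE 0.097, against 0.28 with all libraries).

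Of 5 R-spondin and Lgr genes tested, 3 rose and 1 fell with Torin in D12, and 1 rose and 2 fell in D6. Lgr5 rose in D12 to 20.6, 14.1 and 16.4 CPM with Torin, against 6.41, 11.5 and 7.47 CPM with DMSO (log2 fold change 1.01, SE 0.26, adjusted p = 0.0134). In D6, Lgr5 fell to 1.90, 2.59 and 2.51 CPM with Torin, against 12.8, 8.19 and 14.4 CPM with DMSO (log2 fold change −2.34, SE 0.28, adjusted p = 4.49e-05). The groups did not overlap in either arm, and the direction was opposite, although the D12 rise was not called without the first D12 Torin library or without the first or the third D12 DMSO library (log2 0.84 to 0.93). Lgr6, which marks epithelial progenitors in mouse skin and mammary gland, rose in D12 to 94.6, 112 and 94.7 CPM with Torin, against 40.6, 42.9 and 39.3 CPM with DMSO (log2 fold change 1.295, SE 0.15, adjusted p = 7.00e-05). In D6, Lgr6 rose to 119, 114 and 167 CPM with Torin, against 39.3, 40.6 and 49.5 CPM with DMSO (log2 fold change 1.63, SE 0.15, adjusted p = 5.20e-06). Neither arm overlapped for Lgr6.

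Lgr4 had 73.0 to 139 CPM with Torin against 63.6 to 78.5 CPM with DMSO in D12, where it rose (log2 fold change 0.69, SE 0.19, adjusted p = 0.0192) although the third Torin library was within the DMSO range. This call was lost without either of the first 2 Torin or DMSO libraries of D12 (log2 0.51 to 0.67), and was kept without the third D12 Torin library (log2 0.92, SE 0.11). In D6 Lgr4 was not called (log2 fold change 0.45, SE 0.19, adjusted p = 0.0810), but it was called higher there without the third D12 Torin library (log2 0.45, SE 0.0996, adjusted p = 0.00471). Rspo4 had 0.228, 0.341 and 0.140 CPM with Torin in D12, against 1.18, 2.16 and 0.846 CPM with DMSO, and fell (log2 fold change −2.55, SE 0.60, adjusted p = 0.00864). In D6, Rspo4 fell as well, with 4 counts in all against 57, a ratio of 0.0645 with a 95% exact counting interval of 0.0170 to 0.174, Torin against DMSO. The groups for Rspo4 did not overlap in either arm. Rspo1 was again below the filter, at 6, 1 and 6 counts with Torin against 1, 4 and 1 counts with DMSO in D12, and 2, 4 and 8 against 4, 0 and 1 counts in D6, overlapping in both arms.

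Of 6 secreted inhibitors tested, 3 rose in D12 and 2 in D6, and the rest did not pass the test. Wif1 was at 29.9 to 35.5 CPM with Torin in D12, against 21.7 to 27.8 CPM with DMSO, without overlap or a call (log2 fold change 0.37, SE 0.15, adjusted p = 0.0945). Without the first D6 DMSO library Wif1 was called higher in D12 (log2 0.37). In D6, Wif1 rose to 84.6, 77.7 and 74.7 CPM with Torin, against 26.1, 18.5 and 17.7 CPM with DMSO (log2 fold change 1.93, SE 0.15, adjusted p = 1.99e-06), and the groups were far apart. Sfrp2 had 7.38, 6.79 and 5.11 CPM with Torin in D12, against 2.54, 2.51 and 2.17 CPM with DMSO, and rose (log2 fold change 1.41, SE 0.27, adjusted p = 0.00238). In D6, Sfrp2 rose to 5.12, 5.52 and 7.41 CPM with Torin, against 2.06, 2.46 and 4.19 CPM with DMSO, with a narrower gap (log2 fold change 1.05, SE 0.27, adjusted p = 0.00853). In D12 Dkk2 (7.32 to 10.2 CPM with Torin, 3.28 to 5.63 with DMSO; log2 0.92, SE 0.24) and Dkk3 (289 to 318 CPM with Torin, 233 to 269 with DMSO; log2 0.32, SE 0.099) rose too, though the Dkk2 call was lost without the third D12 Torin or DMSO library and the Dkk3 call without 5 single libraries. Sfrp1 had no call in either arm with all libraries. Its D12 level was 249, 273 and 162 CPM with Torin, against 115, 133 and 111 CPM with DMSO, and in D6 it was 66.3, 84.5 and 216 CPM with Torin, against 143, 127 and 165 CPM with DMSO. Without the third D6 Torin library Sfrp1 was called higher in D12 (log2 0.95, SE 0.17) and lower in D6 (log2 −0.96, SE 0.19). Dkk1, too low to be tested, had 0, 0 and 0 counts with Torin against 1, 1 and 0 with DMSO in D12, and 3, 7 and 3 counts against 0, 0 and 0 in D6.

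The feedback gene Axin2 had 0.685, 0.644 and 0.980 CPM with Torin in D12, against 0.884, 0.496 and 0.994 CPM with DMSO, which overlapped (log2 fold change −0.034, SE 0.35, adjusted p = 0.960). In D6, Axin2 rose to 3.46, 3.16 and 4.71 CPM with Torin, against 0.622, 0.358 and 0.758 CPM with DMSO (log2 fold change 2.68, SE 0.35, adjusted p = 8.77e-05). All 3 D6 Torin libraries stood well above the other 9 libraries of the experiment. Nkd1 had no call in either arm (log2 0.66, SE 0.70 in D12 and log2 −0.24, SE 0.69 in D6). Without the third D12 Torin library its D12 value was 0.097 (SE 0.78). Without the third D6 Torin library its D6 value was −1.08 (SE 0.70), and neither was called. Of the ligases, Znrf3 rose in D12 (38.0 to 68.2 CPM with Torin, 32.4 to 37.4 with DMSO; log2 0.76, SE 0.21) and Rnf43 fell in D6 (12.99 to 17.4 CPM with Torin, 23.9 to 29.6 with DMSO; log2 −0.80, SE 0.13). The call of Znrf3 was lost without either of the first 2 Torin or DMSO libraries of D12, and without the third D12 Torin library its value was 0.99 (SE 0.15).

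Among the TCF/LEF factors, Tcf7 had 23.3, 22.6 and 21.8 CPM with Torin in D12, against 9.32, 13 and 10.6 CPM with DMSO, and rose (log2 fold change 1.04, SE 0.33, adjusted p = 0.0379). In D6, Tcf7 rose to 19.5, 23.4 and 59.4 CPM with Torin, against 12.6, 11.7 and 11.6 CPM with DMSO (log2 fold change 1.51, SE 0.33, adjusted p = 0.00377). The groups were apart in both arms. The D12 call was lost when any 1 of 9 libraries was left out (log2 0.94 to 1.18), and without the third D6 Torin library the D6 value was 0.83 (SE 0.14), still called. Tcf7l2 had 635, 584 and 269 CPM with Torin in D12, against 274, 273 and 324 CPM with DMSO, and was called higher (log2 fold change 0.77, SE 0.26, adjusted p = 0.0455) although the third Torin library lay below all 3 DMSO libraries. In D6, Tcf7l2 had 161 to 248 CPM with Torin, against 295 to 327 CPM with DMSO, lower without overlap but without a call (log2 fold change −0.58, SE 0.26, adjusted p = 0.0929). It was called lower in D6 without the third D12 Torin library (log2 −0.58, SE 0.14, adjusted p = 0.00599), in a fit of the D6 libraries alone (adjusted p = 0.0247) and with no filter (adjusted p = 0.0255). The D12 call of Tcf7l2 was lost when any 1 of 9 libraries was left out, and without the third D12 Torin library its log2 fold change was 1.07 (SE 0.15). Lef1 had 3.01, 3.07 and 3.74 CPM with Torin in D12, against 2.91, 3.33 and 3.13 CPM with DMSO, overlapping (log2 fold change 0.069, SE 0.24, adjusted p = 0.877). In D6, Lef1 had 1.83, 1.69 and 1.94 CPM with Torin, against 4.04, 2.06 and 2.35 CPM with DMSO, below each DMSO library but without a call (log2 fold change −0.63, SE 0.25, adjusted p = 0.0639). Without the second D6 DMSO library Lef1 was called lower in D6 (log2 −0.81).

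**Figure D3:**
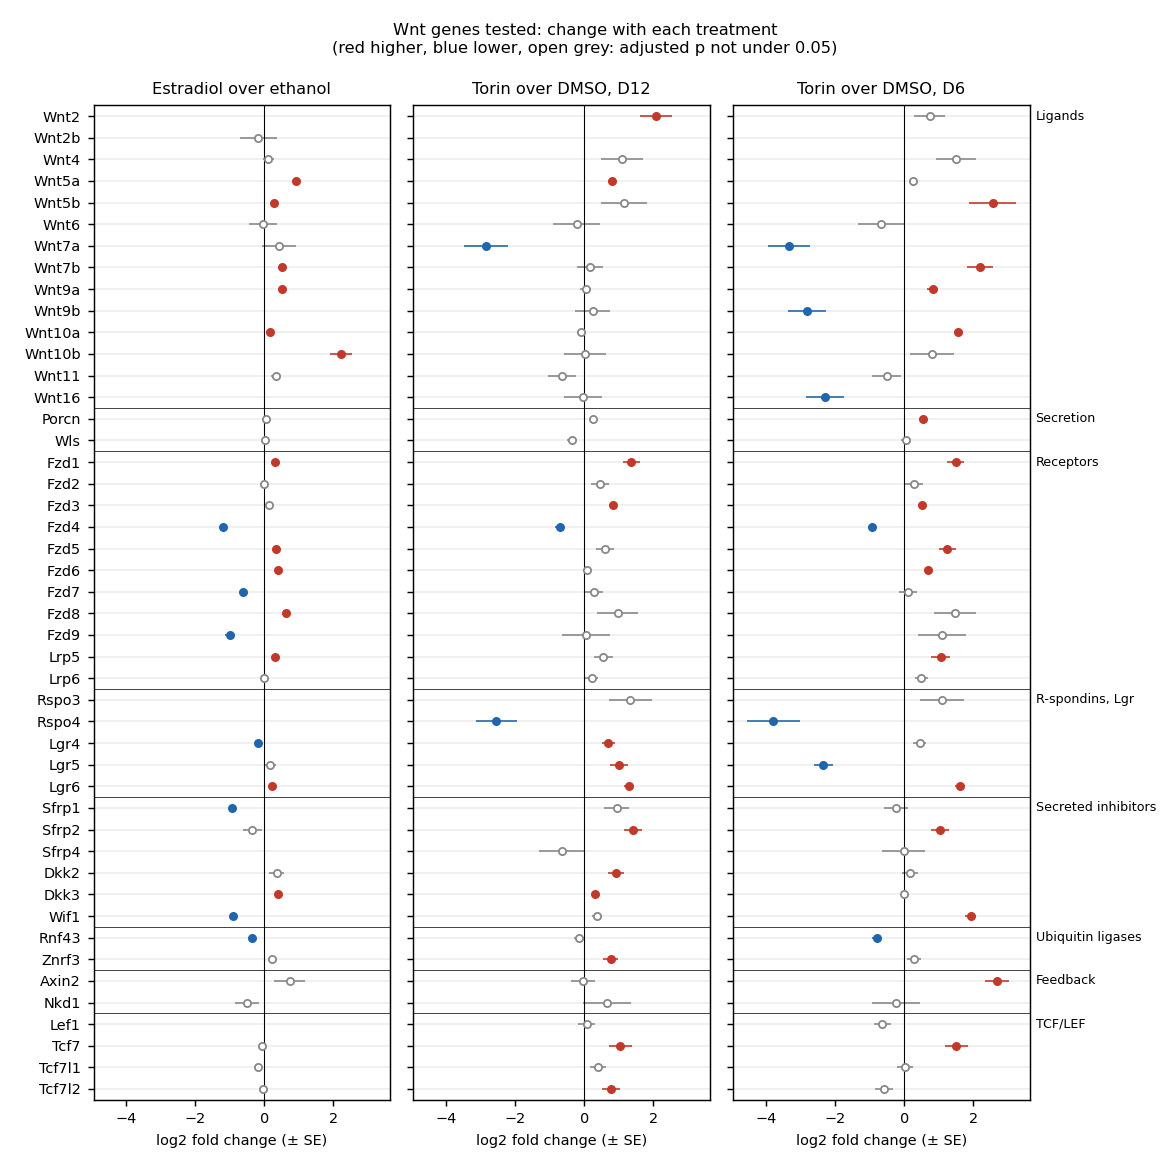
Log2 fold change (± SE of the edgeR fit) of each tested Wnt gene with estradiol over ethanol and with Torin over DMSO in D12 and D6, 3 libraries per group, ordered by role; filled red is higher, filled blue lower and open grey not past an adjusted p of 0.05. Fzd4 is lower and Fzd1 and Lgr6 are higher in all 3 panels, and the errors with Torin are wider than with estradiol.

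The Torin effect itself differed between the arms for 11 of the 45 genes (24.4%), against 10.6% of all genes, by the interaction term of the same fit. It was more positive in D12 for 5 genes (5.03% of all genes) and more negative for 6 (5.55% of all genes). The median difference, D12 minus D6, was 0.18 over the Wnt genes and −0.026 over all genes. Lgr5 had a difference of 3.35 (SE 0.38, adjusted p = 0.000216), rising in D12 and falling in D6. Axin2 (−2.71, SE 0.49, adjusted p = 0.00456), Wnt10a (−1.66, SE 0.17, adjusted p = 0.000116) and Wif1 (−1.56, SE 0.21, adjusted p = 0.000738) rose in D6 and had no call in D12. These 4 calls were kept when any 1 of the 12 libraries was left out and in the other fits of the same threshold. Wnt7b, Wnt9a and Fzd6 also differed towards D6, by −2.03 (SE 0.53), −0.80 (SE 0.23) and −0.62 (SE 0.14). Wnt9b, Tcf7l2, Rnf43 and Wnt5a differed towards D12, by 3.06 (SE 0.75), 1.35 (SE 0.36), 0.64 (SE 0.18) and 0.56 (SE 0.13). Each of these 7 calls was lost without 1 or more single libraries, and the Wnt7b difference was −1.19 (SE 0.17) without the third D6 Torin library. Without that library 8 genes were more positive in D12, now with Sfrp1 (log2 1.91, SE 0.25), Fzd7 (log2 0.72, SE 0.15) and Tcf7l1 (log2 0.76, SE 0.23), and 5 more negative. Without the third D12 Torin library Wls was called more negative in D12 (log2 −0.61, SE 0.16). The count of more positive genes was 2 or 3 without any 1 of the 6 DMSO libraries or of the first 2 D12 Torin libraries, and the count of more negative genes was 3 without the third D6 DMSO library. Over all genes, 1917 of 18112 differed with all libraries and 2294 of 18681 without the third D6 Torin library. Without 1 of those DMSO or D12 Torin libraries, 1219 to 1481 differed. Fibroblast markers differed in the same contrast, 9 of 12 of them more positive in D12, and their part in these values was not tested.

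**Figure D4:**
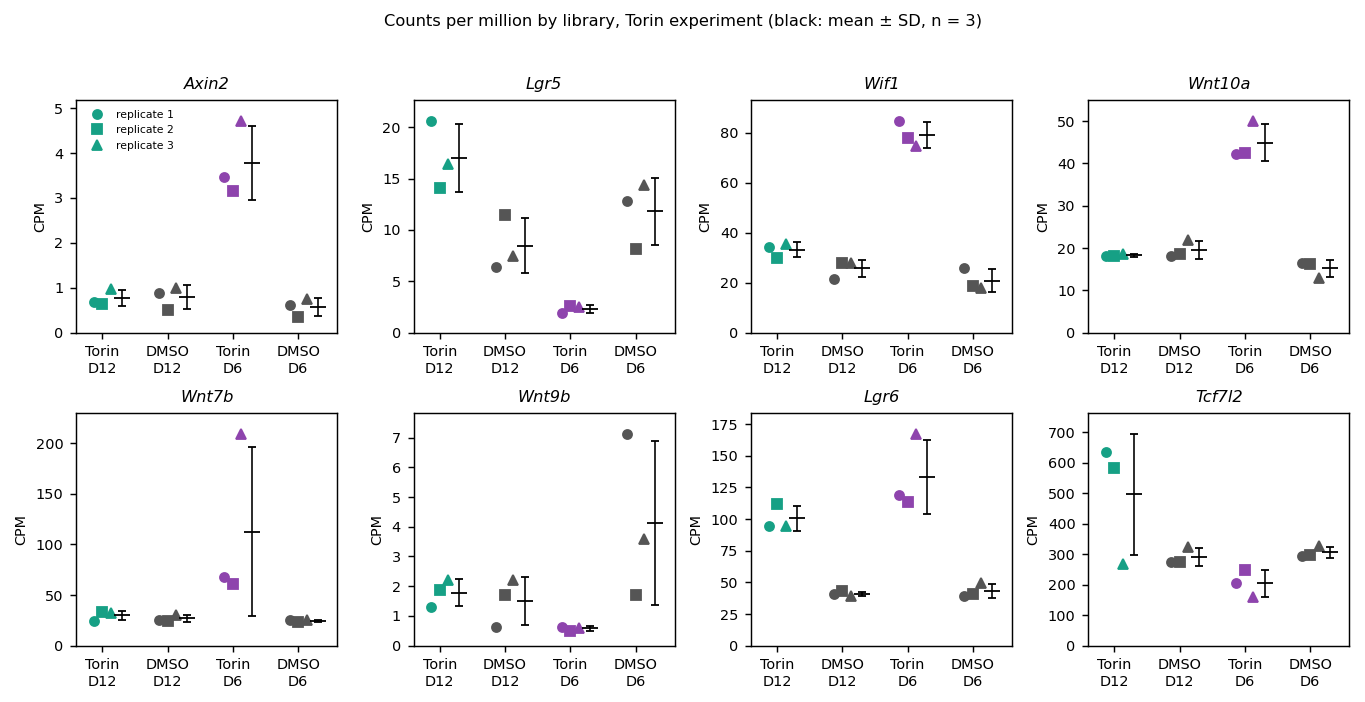
CPM in each library of the Torin experiment for 8 Wnt genes, Torin to the left of DMSO in D12 and then in D6, with the mean ± SD of 3 libraries in black; symbols mark replicate numbers and each vertical axis starts at 0. Axin2, Wif1 and Wnt10a stand high in D6 Torin libraries, Lgr5 is above DMSO in D12 and below it in D6, and the third Torin library lies apart for Wnt7b in D6 and Tcf7l2 in D12.

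**Figure D5:**
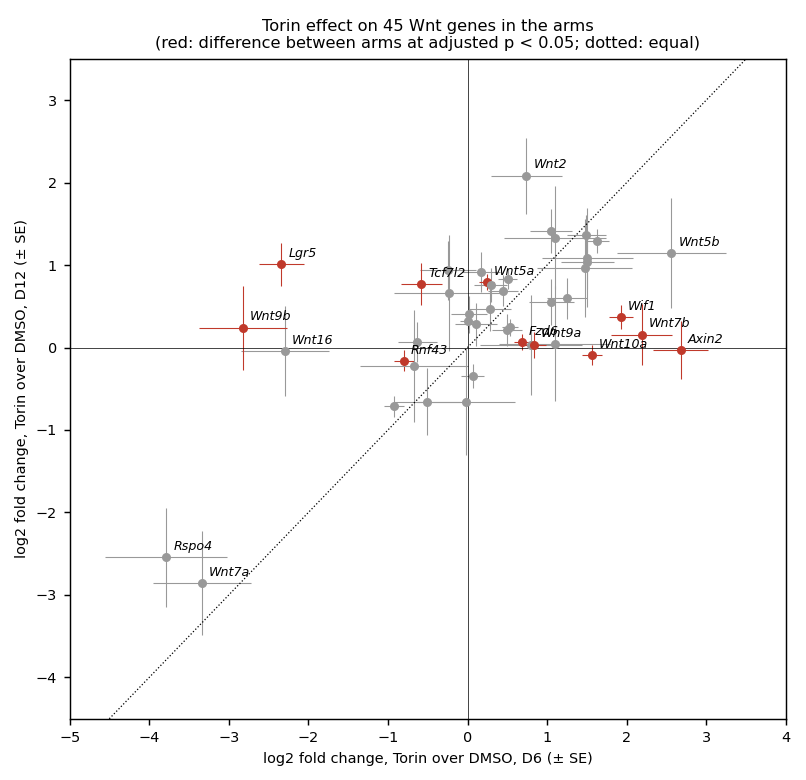
Log2 fold change of Torin over DMSO in D12 (vertical) against D6 (horizontal) for the 45 tested Wnt genes, with SEs; the dotted line marks equal effects and red points are the 11 genes whose effects differed. Lgr5 lies in the upper left, Axin2, Wnt10a, Wif1 and Wnt7b lie to the right near 0 on the vertical axis, and Rspo4 and Wnt7a are low in both arms.

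Between the DMSO libraries of D12 and D6 the same test gave no call among the Wnt genes: edgeR called none of the 45 genes and 0.00552% of all genes (1 gene), DESeq2 and limma called none of the 45 either, and 4 had an unadjusted p under 0.05 (4.04% of all genes). These were Wnt5a and Wnt10a with Wnt9b and Wnt16. Wnt5a was 15.1 to 17.2 CPM in D12 DMSO libraries, against 17.9 to 20.5 CPM in D6 DMSO libraries (log2 −0.29), and Wnt10a was 18.1 to 22.0 CPM in D12, against 12.9 to 16.5 CPM in D6 (log2 0.37). Wnt9b was 0.626 to 2.21 CPM in D12, against 1.70 to 7.12 CPM in D6 (log2 −1.45). Wnt16 was 0.2125 to 0.294 CPM in D12, against 0.542 to 0.850 CPM in D6 (log2 −1.38). The differences between arms given above for Wnt9b, Wnt5a and Wnt10a include these differences between the DMSO groups. The D12 and D6 DMSO libraries did not overlap for 5 of the 45 genes, against 12.2% of all genes.

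The 3 treatment comparisons share no libraries. Between estradiol and Torin in D6, 9 genes rose in both (69.2% of the 13 rises with estradiol and 60% of the 15 in D6): Fzd1, Fzd5, Fzd6, Lrp5, Lgr6, Wnt5b, Wnt7b, Wnt9a and Wnt10a. Over the 13016 genes tested in both experiments, 55.1% of the rises with estradiol and 44.2% of those in D6 were shared. Fzd4 and Rnf43 fell in both (28.6% of the 7 falls of either, though only 4 of those in D6 were tested with estradiol). Over all genes tested in both, 50.7% of the falls with estradiol and 38.5% of those in D6 were shared. Between estradiol and Torin in D12, the rises shared were Dkk3, Fzd1, Lgr6 and Wnt5a (30.8% of the 13 rises of either, against 29.8% of the rises with estradiol and 44.6% of those in D12 over all genes tested in both). Of the 13 rises in D12, 12 were tested with estradiol. The fall shared was Fzd4 (14.3% of the 7 with estradiol and 33.3% of the 3 in D12, though only 2 of those in D12 were tested with estradiol). Over all genes tested in both, shared falls were 40% of those with estradiol and 38.5% of those in D12. Torin in D12 and D6 shared 5 rises, Fzd1, Fzd3, Lgr6, Sfrp2 and Tcf7 (38.5% of 13 in D12 and 33.3% of 15 in D6), and 3 falls, Fzd4, Rspo4 and Wnt7a (100% of 3 in D12 and 42.9% of 7 in D6). Over all genes, shared rises were 65.2% of those in D12 and 35.6% of those in D6, and shared falls 68.7% and 51.7%. Fzd1 and Lgr6 thus rose and Fzd4 fell in each comparison. The genes called in opposite directions were 3: Wif1 fell with estradiol and rose with Torin in D6, Lgr4 fell with estradiol and rose with Torin in D12, and Lgr5 changed opposite ways in the Torin arms.

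Among 46 other genes of Wnt signalling, chosen for their place in the pathway, 11 of 43 tested rose and 7 fell with estradiol (17.4% and 16.6% of all genes). With Torin 8 of 45 rose and 2 fell in D12 (10.8% and 14.6% of all genes), and 15 of 45 rose and 5 fell in D6 (19.8% and 19.3% of all genes). Nkd2, a paralogue of Nkd1 that binds Dishevelled, had the lowest p in each comparison. It averaged 121 ± 4.06 CPM with estradiol and 52.9 ± 5.03 CPM with ethanol (SD, n = 3 each) and rose (log2 1.19, SE 0.061, adjusted p = 1.97e-09). With Torin it averaged 134 ± 17.5 CPM in D12, against 55.3 ± 1.86 CPM with DMSO (log2 1.28, SE 0.10, adjusted p = 7.68e-06), and 232 ± 26.9 CPM in D6, against 51.8 ± 1.79 CPM with DMSO (log2 2.16, SE 0.11, adjusted p = 4.85e-08). Nkd2 thus rose in all 3. Sp5, a transcription factor gene and a common target of beta-catenin, rose with Torin to 2.35 ± 0.271 CPM in D12, against 0.484 ± 0.0450 CPM with DMSO (log2 2.27, SE 0.28, adjusted p = 0.000141), and to 13.7 ± 3.16 CPM in D6, against 0.554 ± 0.204 CPM with DMSO (log2 4.63, SE 0.29, adjusted p = 2.78e-07). With estradiol, a value singled out after it was seen, Sp5 fell to 0.154 ± 0.0531 CPM, against 1.22 ± 0.217 CPM with ethanol (log2 −2.95, SE 0.42, adjusted p = 8.35e-05).

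The other genes with the lowest p were, with estradiol, Prickle2 (log2 −0.80, SE 0.084, adjusted p = 4.14e-06) and Celsr1 (log2 0.43, SE 0.059, adjusted p = 5.63e-05), both of planar cell polarity, and Sostdc1, a secreted protein that binds BMPs and Lrp6 (log2 −0.41, SE 0.056, adjusted p = 4.90e-05). In D12 they were Procr, a surface receptor reported on mouse mammary stem cells (log2 −1.16, SE 0.22, adjusted p = 0.00220), and Sostdc1 (log2 0.66, SE 0.13, adjusted p = 0.00240). In D6 they were Gpc4, a cell-surface proteoglycan (log2 1.00, SE 0.10, adjusted p = 1.51e-05), and Ctnnb1, which encodes beta-catenin itself (log2 0.74, SE 0.091, adjusted p = 5.88e-05). Prickle2 and Sostdc1 fell with estradiol and Celsr1 rose, Procr fell and Sostdc1 rose with Torin in D12, and Gpc4 and Ctnnb1 rose with Torin in D6.

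The remaining values did not pass the test with all libraries or were too low to be tested. Fzd2 had log2 fold changes of −0.025 with estradiol and, with Torin, of 0.46 in D12 and 0.28 in D6, and the coreceptor Lrp6 had −0.024, 0.21 and 0.50. Tcf7l1, mostly a repressor, had −0.20, 0.40 and 0.020, in the same order. Without the third D6 Torin library, the D6 values were −0.14 for Fzd2, 0.16 for Lrp6 and −0.33 for Tcf7l1, all without a call, and in D12 Fzd2 (0.48, SE 0.17) and Tcf7l1 (0.42, SE 0.15) were called higher. Lrp6 was called higher in D6 without the first D6 Torin library (log2 0.70). Wnt11, a ligand of tissue movements, had 0.33, −0.66 and −0.51, and Wnt6 had −0.040, −0.23 and −0.67. With estradiol, Wnt11 was called higher without the second ethanol library (log2 0.49, SE 0.14). Tcf7l1 was called lower without the second estradiol library (log2 −0.28, SE 0.095). Wnt2b was tested with estradiol alone (log2 −0.18, SE 0.54) and the inhibitor Sfrp4 with Torin alone (log2 −0.66 in D12 and −0.017 in D6). With Torin, Wnt10b had log2 fold changes of 0.032 (SE 0.61) in D12 and 0.80 (SE 0.64) in D6, Rspo3 of 1.33 (SE 0.62) and 1.099 (SE 0.64), and Fzd8 of 0.96 (SE 0.60) and 1.47 (SE 0.60), all without a call. The third D6 Torin library held the most Fzd8, and its group had 0.882, 1.05 and 4.79 CPM, against 0.428, 0.895 and 1.08 CPM with DMSO; without it the D6 value was 0.25 (SE 0.41), while with all libraries DESeq2 (adjusted p = 0.0444) and the fit with no filter (adjusted p = 0.0495) called Fzd8 higher. With estradiol, Sfrp2, Dkk2 and Wnt7a had −0.35, 0.36 and 0.42, again without a call. Of the genes tested in neither experiment, Fzd10 had 4 to 12 counts with estradiol or ethanol and 0 to 9 counts with Torin or DMSO, and Sfrp5 had 0 to 9 counts in any library. Wnt8a, Wnt8b, Rspo2 and Dkk4 had at most 4 counts in any library.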

How the data were processed

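Polyadenylated RNA of 18 organoid libraries was sequenced from NEBNext Ultra II Directional libraries as paired-end reads on an Illumina NovaSeq, per the labels' protocols. The submitters' processing notes name kallisto, Trim Galore, cutadapt, FastQC, MultiQC and DESeq2, with no roles, and the build GRCm39. The estradiol table holds estimated counts per gene deposited by the authors (32.2% of all values not whole, rounded here), and the Torin table holds whole-number counts per gene deposited by the authors. The normalized signal deposited by the authors for both served in 1 alternative alone. Further Torin samples that the design text counts are not analysed here.

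Groups follow the sample titles. Each experiment was fitted by itself with edgeR 4.0.16 (R 4.3.3): filterByExpr, TMM scaling and the quasi-likelihood test on group means with no covariate, and Benjamini-Hochberg adjustment over all genes tested, with calls at an adjusted p under 0.05. All 4 Torin groups entered 1 fit, and the difference between arms is its interaction term. CPM are counts scaled to 1000000 by the TMM-adjusted library total, the log2 fold changes are those of the fit with edgeR's prior count, and SEs are the log2 fold change over the square root of F. Counting intervals are exact at 95% and cover counting error only. The estradiol total of 20637473 to 24312079 and the Torin total of 23239364 to 28910688 counts per library set the precision. Scripts were tested on simulated counts with known changes.

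Values of every library are given for genes past the threshold with a log2 fold change of at least 1 either way and a mean of at least 1 CPM in the higher group, for Wnt4, Axin2, Lef1, Lgr5, Rspo1, Wnt10a, Porcn and Wls always, and for genes at which 1 library stood apart. Of the other Wnt signalling genes the 4 with the lowest p per comparison are named. The genes and lists were chosen with earlier results of these data known. Alternatives were DESeq2 1.42.0, its size factors (RLE) in edgeR, limma 3.58.1 on log2 signal, no filter and a stricter one, stricter thresholds, fits of 2 groups, a replicate block and leaving out each library; leaving out the third Torin libraries was added after the data were seen. Exon lengths come from GENCODE M21 and promoters from RefSeq, both on GRCm38, so no coordinate of the files' build is printed.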

Additional observations from a re-analysis of the deposited data

Results flagged for a closer look

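The Torin effect, as the log2 fold change in D12 minus that in D6, differed between the arms for 11 Wnt genes by the interaction term of the edgeR fit (Benjamini-Hochberg adjusted over all genes). It was positive for Lgr5 (3.35), Wnt9b (3.06), Tcf7l2 (1.35), Rnf43 (0.64) and Wnt5a (0.56). It was negative for Axin2 (−2.71), Wnt7b (−2.03), Wnt10a (−1.66), Wif1 (−1.56), Wnt9a (−0.80) and Fzd6 (−0.62). The arms carry separate batch tags and treatment lengths, which cannot be told apart here.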

How the results depend on the processing

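Under settings of the same threshold and in each fit without a single library, 19 of 20 estradiol calls, 8 of 16 D12 calls, 17 of 22 D6 calls and 4 of 11 calls of the difference between arms were kept. A further D12 call (Wnt7a) and 3 D6 calls (Wnt7a, Wnt16, Rspo4) were kept where tested, but the genes were too low to be tested in 1 to 3 settings. Leaving out 1 library gave 12 to 14 rises and 7 to 8 falls with estradiol, 7 to 22 rises and 3 to 4 falls with Torin in D12, 15 to 18 rises and 7 to 10 falls in D6, and 2 to 8 more positive and 3 to 7 more negative differences between arms. Between DMSO groups it gave 0 to 0 in either direction. Over all genes, calls in either direction then numbered 4191 to 4828 with estradiol and 3261 to 5992 in D12. They numbered 5595 to 7282 in D6 and 1219 to 2307 for the difference between arms. Among the Wnt genes, calls of at least 2-fold numbered 1 rise and 1 fall with estradiol (624 of 15358 over all genes in either direction). They also numbered 6 rises in D12 (1408 of 18112 likewise) and 3 more positive differences (941 of 18112). At an adjusted p under 0.01 there were 6 rises in D12 (2733 calls over all genes in either direction). There were 1 more positive and 3 more negative differences (842 calls likewise). The more positive differences numbered 3 with limma, 3 with no filter and 3 with a replicate block. Without the third Torin libraries of both arms, chosen after seeing the data, there were 21 rises in D12, 11 falls in D6 and 10 more positive differences. Beside these, calls over all genes in either direction numbered 6581, 7649 and 3308 of 18510. The deviations of same-numbered libraries from their group means correlated at −0.0267 to −0.00972 (estradiol) and −0.0939 to 0.0931 (Torin), none over 0.1. Those of differently numbered libraries correlated at −0.00296 to 0.0201 and −0.153 to 0.161. With 3 libraries per group these values cannot tell whether same-numbered libraries share a mouse or a preparation. With the replicate block there were 12 rises and 7 falls with estradiol, 11 and 3 in D12, 15 and 7 in D6, 3 more positive and 5 more negative differences and 0 calls between DMSO groups. Some values without a call changed sign in at least 1 setting, and the cause was not tested. Without single libraries Axin2 in D12 ran from −0.28 to 0.16 (0.045, 0.052 and 0.078 among them) and Lef1 in D12 from −0.041 to 0.13. Lef1 was −0.042 with limma and −0.023 without the third Torin libraries. With estradiol Lgr5 ran from −0.034 to 0.29 and Wnt4 from −0.023 to 0.28, both lowest without the first ethanol library. Wls in D6 ran from −0.083 without the third D6 Torin library to 0.15, and was −0.082 without the third Torin libraries of both arms. The Wnt4 difference between arms ran from −0.76 to 0.75, highest without the third D6 Torin library, and was 0.88 without both. DESeq2 size factors moved the median of all genes by under 0.1 in each comparison.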

Other observations

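Tcf7l2 averaged 4.28 CPM per kb in estradiol and 4.38 in ethanol libraries. In D12 it averaged 112 with Torin (60.8 to 143) against 65.6 with DMSO (61.7 to 73.2). In D6 it averaged 46.2 with Torin against 69.2 with DMSO. The 2 tables were counted and scaled separately, and the experiments also differed in mouse age and length of culture. The levels are therefore side by side without a test.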
